A study of Mus musculus with 8 samples.

Results

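Early heart regulators and contractile genes were measured in single mouse embryos at embryonic day 8.5 (E8.5), the stage at which the heart tube forms and begins to beat. The set held 10 genes, the 6 transcription factors Nkx2-5, Gata4, Tbx5, Hand1, Hand2 and Isl1 and the 4 contractile genes Myh6, Myh7, Tnnt2 and Actc1, and was taken as every non-control probe whose RefSeq accession belonged to one of them. This gave 11 probes, 1 for each gene and 2 for Myh6, of 55681 distinct probes on the array for 20660 named genes. All 11 were well above background in each of the 8 embryos and all passed the filter on dim probes, which left 29718 probes to test.

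The study asked whether reduced function of EED, a core subunit of Polycomb repressive complex 2, in a father's germline alters gene expression in the offspring. The mutation was the hypomorphic (reduced function) allele Eedl7Rn5-1989SB on a C57bl6/129 background. All 8 embryos were heterozygous for this allele and had wild-type (WT) mothers, and by their labels the groups differed in the father. The HOM father group held 4 embryos sired by homozygous males and the HET father group 4 embryos sired by heterozygous males, with 2 females and 2 males in each. Per the study the sires were 3 of each genotype, as littermate pairs of a homozygous and a heterozygous brother, and embryos were matched for stage and size. Some embryos of a group thus share a father, and the p-values measure the spread between embryos. The labels do not name the sire, so the pairs of brothers could not enter the fit. RNA from each whole embryo was hybridised to its own 1-colour Agilent array, and the 4 HOM father arrays lay on one slide and the 4 HET father arrays on another, so that slide and father cannot be told apart.

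The cardiac transcription factors act together on the DNA of heart muscle genes. NKX2-5, GATA4 and TBX5 bind one another and switch on genes of the sarcomere, the contractile unit of muscle, while HAND1 and HAND2 pattern the ventricles and the outflow region, and ISL1 marks the second heart field that adds cells to both ends of the tube. The contractile genes encode parts of the sarcomere itself: MYH6 and MYH7 are the alpha and beta cardiac myosin heavy chains, TNNT2 is cardiac troponin T of the thin filament, and ACTC1 is cardiac alpha actin. In RNA of a whole embryo, fewer heart cells and less RNA per heart cell cannot be told apart.

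Sequence before a transcript start of each contractile gene is shown because these 4 genes were lowest together in 1 embryo described below. The 250 bases before 1 annotated transcript start, the most upstream one listed in the promoter table, are given 5′ to 3′ on the strand of the gene, from RefSeq on build GRCm38.p6. Other transcripts may start elsewhere: the annotated Myh6 gene begins further upstream, so that its window lies within the gene, and the Tnnt2 window overlaps the annotated start of its gene. Actc1 lies at chr2:114052876-114053125 (minus strand), Myh7 at chr14:54994627-54994876 (minus strand), Tnnt2 at chr1:135836084-135836333 (plus strand) and Myh6 at chr14:54966608-54966857 (minus strand). Capitals mark a CArG box, the element bound by serum response factor, a MEF2 box, TATAAA, the GATA elements AGATAA or TGATAA, and the NKX2-5 element CACTTNA, on either strand.
Actc1: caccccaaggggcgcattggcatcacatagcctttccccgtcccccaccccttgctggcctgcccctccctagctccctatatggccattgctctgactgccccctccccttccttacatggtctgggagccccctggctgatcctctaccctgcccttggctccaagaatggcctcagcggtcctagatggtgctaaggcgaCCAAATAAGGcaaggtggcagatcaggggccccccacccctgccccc
Myh7: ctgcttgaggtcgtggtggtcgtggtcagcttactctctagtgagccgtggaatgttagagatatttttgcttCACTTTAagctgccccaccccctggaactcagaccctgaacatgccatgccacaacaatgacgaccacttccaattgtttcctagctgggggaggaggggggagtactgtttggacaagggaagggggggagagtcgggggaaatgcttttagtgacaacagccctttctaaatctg
Tnnt2: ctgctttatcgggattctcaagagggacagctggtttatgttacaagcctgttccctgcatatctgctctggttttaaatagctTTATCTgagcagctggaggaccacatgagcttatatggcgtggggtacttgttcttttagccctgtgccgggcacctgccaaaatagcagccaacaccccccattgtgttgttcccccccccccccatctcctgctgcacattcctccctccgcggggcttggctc
Myh6: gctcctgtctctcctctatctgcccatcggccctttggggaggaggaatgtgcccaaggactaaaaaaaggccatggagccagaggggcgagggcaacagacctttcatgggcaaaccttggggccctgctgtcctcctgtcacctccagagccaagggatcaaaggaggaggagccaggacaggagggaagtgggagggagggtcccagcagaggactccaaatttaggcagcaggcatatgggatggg

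The Actc1 sequence held a CArG box 47 bases before the start. This element was present in 1.63% of the 32851 RefSeq promoter windows of 300 bases (250 before and 50 after the start). The Myh7 sequence held the NKX2-5 element CACTTTA 177 bases before the start, and CACTTNA was present in 11.5% of windows. The Tnnt2 sequence held TTATCT, which reads AGATAA on the other strand, 166 bases before the start, and AGATAA was present in 11.2% of windows. None of these motifs was found in the Myh6 sequence printed. TATAAA began just after its start site and further past that of Actc1, outside the sequences printed, and was present in 13.6% of windows. Windows were matched for 7 of the 10 genes, those of Nkx2-5, Hand2 and Isl1 beside the 4 above. The E box CANNTG, the type of site bound by HAND proteins, was present in all 7 and in 72.3% of all windows. The T box element GGTGTNA was present in none of the 7 and in 10.2% of all windows. The other NKX2-5 element searched, TNNAGTG, which is not capitalised above, was present in 2 of the 7, Nkx2-5 and Myh7, and in 39.4% of all windows. A match of letters is a description and not a binding site.

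Signals are given as normalised log2 signal, the log2 of the processed spot intensity minus the 75th percentile of its array, so that 0 is the level of the 75th percentile. No probe of the 11 passed a test for a difference between the father groups. With limma and Benjamini-Hochberg adjustment over all 29718 probes, 0 of 11 passed an adjusted p below 0.01 with at least a 2-fold change, against 1.27% of all probes, and 0 of 11 passed an adjusted p below 0.05 with no limit on fold, against 21% of all probes (8.69% lower in the HOM father group). None reached an unadjusted p below 0.05, which 34.8% of all probes did, and the lowest unadjusted p was 0.0631. The groups overlapped for each of the 11 probes, whereas they did not overlap for 27.1% of all probes. The difference (HOM father minus HET father) was above 0 for 4 probes and below 0 for 7, and its median was -0.09, beside -0.02 over all tested probes.

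**Figure D1:**
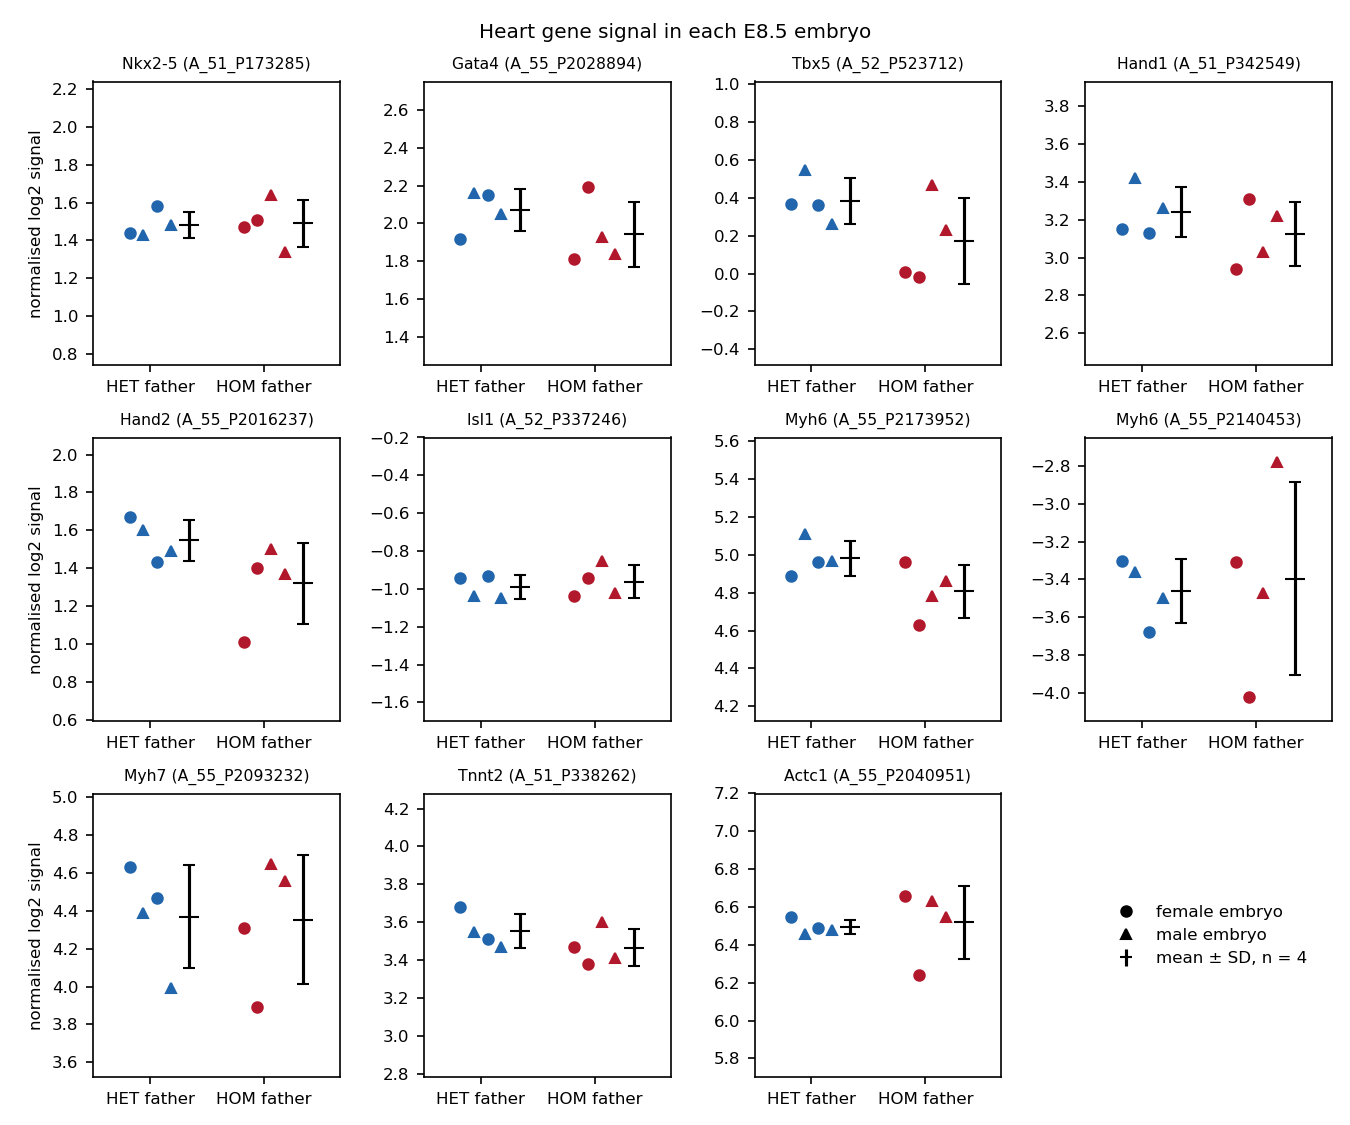
Normalised log2 signal (vertical axis) of the 11 heart gene probes in each embryo, by father group, with females as circles and males as triangles and the mean ± SD of 4 embryos as a black bar, on panels of equal log2 span. The groups overlap in every panel, and the HOM father group has the wider SD in all 11.

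Among the regulators, Nkx2-5, the homeodomain factor of heart progenitors, had normalised log2 signals of 1.47, 1.51, 1.64 and 1.34 in HOM father embryos 1 to 4 and 1.44, 1.43, 1.58 and 1.48 in HET father embryos 1 to 4. The difference was 0.01 (SE 0.07, 95% interval -0.16 to 0.17, limma adjusted p = 0.96). HOM father embryos held both the highest and the lowest value. Isl1, the LIM homeodomain factor of the second heart field, had values of -1.04, -0.94, -0.85 and -1.02 in HOM father embryos and -0.94, -1.04, -0.93 and -1.05 in HET father embryos. Its difference was 0.02 (SE 0.06, 95% interval -0.12 to 0.16, limma adjusted p = 0.818). For these genes the intervals were the narrowest of the regulators.

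Gata4, a zinc finger factor of cardiac and endodermal cells, had normalised log2 signals of 1.81, 2.19, 1.93 and 1.84 in HOM father embryos and 1.92, 2.16, 2.15 and 2.05 in HET father embryos. The difference was -0.12 (SE 0.10, 95% interval -0.35 to 0.10, limma adjusted p = 0.409). HOM father embryo 2 had the highest value of the 8 and HOM father embryo 1 the lowest. Hand1, a basic helix-loop-helix factor also made in extraembryonic tissue, had values of 2.94, 3.31, 3.03 and 3.22 in HOM father embryos and 3.15, 3.42, 3.13 and 3.26 in HET father embryos. The difference was -0.12 (SE 0.10, 95% interval -0.35 to 0.12, limma adjusted p = 0.459). Here HOM father embryos 1 and 3 were the lowest of the 8, and embryos 2 and 4 lay among the HET father embryos.

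Tbx5, the T box factor of the inflow and left ventricular field, and Hand2, the relative of Hand1 with a part in the right ventricle and outflow tract, had the most negative differences. Tbx5 gave 0.01, -0.02, 0.47 and 0.23 in HOM father embryos and 0.37, 0.55, 0.36 and 0.26 in HET father embryos. The difference was -0.21 (SE 0.12, 95% interval -0.49 to 0.06, limma adjusted p = 0.245). HOM father embryos 1, 2 and 4 lay below every HET father embryo and embryo 3 among them. Hand2 gave 1.01, 1.40, 1.50 and 1.37 in HOM father embryos and 1.67, 1.60, 1.43 and 1.49 in HET father embryos. The difference was -0.23 (SE 0.11, 95% interval -0.49 to 0.03, limma adjusted p = 0.188). The same 3 HOM father embryos lay below all 4 HET father embryos, with embryo 3 again within their range. These intervals did not exclude a decrease to -0.49 on the log2 scale.

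The contractile genes had a median difference of -0.02 over 5 probes. The brighter Myh6 probe gave 4.96, 4.63, 4.78 and 4.86 in HOM father embryos and 4.89, 5.11, 4.96 and 4.97 in HET father embryos. The difference was -0.18 (SE 0.08, 95% interval -0.36 to 0.01, limma adjusted p = 0.168), and it had the lowest p of the 11 probes. HOM father embryos 2, 3 and 4 lay below all HET father embryos, but embryo 1 lay within their range. The dimmer Myh6 probe, designed to the same transcript, had processed intensities between 96.7 and 198. It gave -3.31, -4.02, -3.47 and -2.78 in HOM father embryos and -3.30, -3.36, -3.68 and -3.50 in HET father embryos, with a difference of 0.06 (SE 0.24, 95% interval -0.49 to 0.62, limma adjusted p = 0.879). The probes of this gene thus differed in sign, and the interval of the dimmer one held that of the brighter.

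Myh7, which lies next to Myh6 on chromosome 14, gave 4.31, 3.89, 4.65 and 4.56 in HOM father embryos and 4.63, 4.39, 4.47 and 3.99 in HET father embryos. The difference was -0.02 (SE 0.20, 95% interval -0.47 to 0.43, limma adjusted p = 0.957). The spread was wide in both groups, with a range over the 8 embryos of 0.75 log2 units (1.68-fold), and each group had 1 low embryo. Tnnt2 gave 3.47, 3.38, 3.60 and 3.41 in HOM father embryos and 3.68, 3.55, 3.51 and 3.47 in HET father embryos. The difference was -0.09 (SE 0.07, 95% interval -0.25 to 0.08, limma adjusted p = 0.428). The highest embryo was in the HET father group and the lowest in the HOM father group, and the groups overlapped.

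Actc1 had normalised log2 signals of 6.66, 6.24, 6.63 and 6.55 in HOM father embryos and 6.55, 6.46, 6.49 and 6.48 in HET father embryos. The difference was 0.02 (SE 0.09, 95% interval -0.19 to 0.24, limma adjusted p = 0.886). The HET father embryos were close together (SD 0.04, n = 4) and the HOM father embryos further apart (SD 0.19, n = 4), with 3 at or above the top of the HET father range and embryo 2 below it. The difference between these SDs was not tested.

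The scale used to align the arrays mattered for these small differences. When arrays were aligned on their median in place of the 75th percentile, the median difference of all tested probes became -0.21 and 42.7% of them passed an adjusted p below 0.05, most of them (34.8%) lower in the HOM father group. The 11 heart gene probes moved with this shift, to a median of -0.28, and 5 then passed. These were Tbx5 (-0.40, limma adjusted p = 0.0201), Hand1 (-0.31, limma adjusted p = 0.0289), Hand2 (-0.42, limma adjusted p = 0.0131), the brighter Myh6 probe (-0.37, limma adjusted p = 0.0167) and Tnnt2 (-0.28, limma adjusted p = 0.0356). Under quantile normalisation 0 of 11 passed, against 19.2% of all probes, the median was -0.05, and the lowest limma adjusted p was 0.255.

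**Figure D2:**
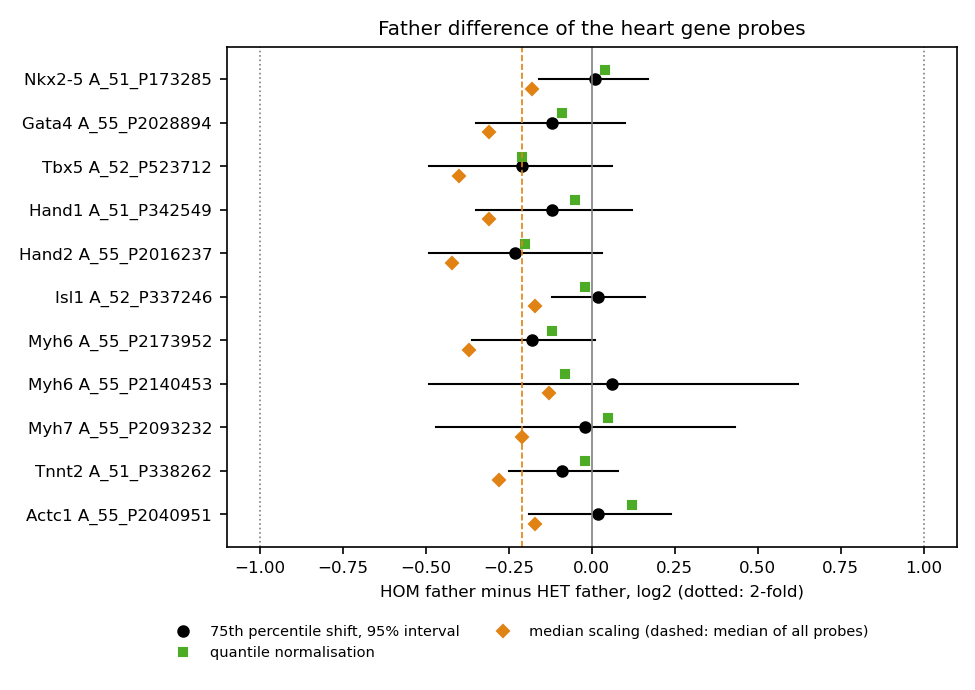
Difference between father groups (log2, HOM father minus HET father) for each heart gene probe, with 4 embryos a group: black points and 95% intervals use the 75th percentile, green squares quantile normalisation and orange diamonds median scaling. Every black interval crosses 0, and the diamonds lie to the left, around the median of all probes under that scaling (dashed, -0.21).

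Embryos differed from one another by about as much in these genes as in others. The SD within father groups had a median of 0.14 over the 11 probes, beside 0.13 over all tested probes, and was above that overall median for 7 of 11 and above the 90th percentile for 0 of 11. It was widest for the dimmer Myh6 probe and for Myh7, at percentiles 89.2 and 84.3 of all probes. The SD was wider in the HOM father group for 11 of 11 probes, beside 53.5% of all tested probes, and this difference was not tested.

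The contractile genes were lowest together in 1 embryo. For each gene the mean of its father group was subtracted, using the brighter probe of Myh6. HOM father embryo 2, a female, lay below its group mean for all 4 contractile genes, by -0.46 for Myh7, -0.27 for Actc1, -0.17 for Myh6 and -0.09 for Tnnt2, and it had the lowest signal of all 8 embryos for each of them. HET father embryo 4 also lay below its group mean for all 4, by -0.38 for Myh7, -0.08 for Tnnt2, -0.02 for Actc1 and -0.01 for Myh6. The mean deviation over the 4 genes was 0.06, -0.25, 0.13 and 0.06 in HOM father embryos 1 to 4 and 0.09, 0.03, 0.01 and -0.12 in HET father embryos 1 to 4. The regulators did not follow in HOM father embryo 2, where their mean deviation was 0.06. There 5 of the 6 lay above the group mean, with Gata4 at 0.25, Hand1 at 0.18, Hand2 at 0.09, and Nkx2-5 and Isl1 at 0.02. Tbx5 alone lay below it, at -0.20. HOM father embryo 1 had all 6 regulators below the group mean, from -0.02 for Nkx2-5 to -0.31 for Hand2. In that embryo 3 of 4 contractile genes lay above the group mean, as in HOM father embryos 3 and 4 and HET father embryo 1. These patterns were picked out by looking at the embryos and are given without a test.

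**Figure D3:**
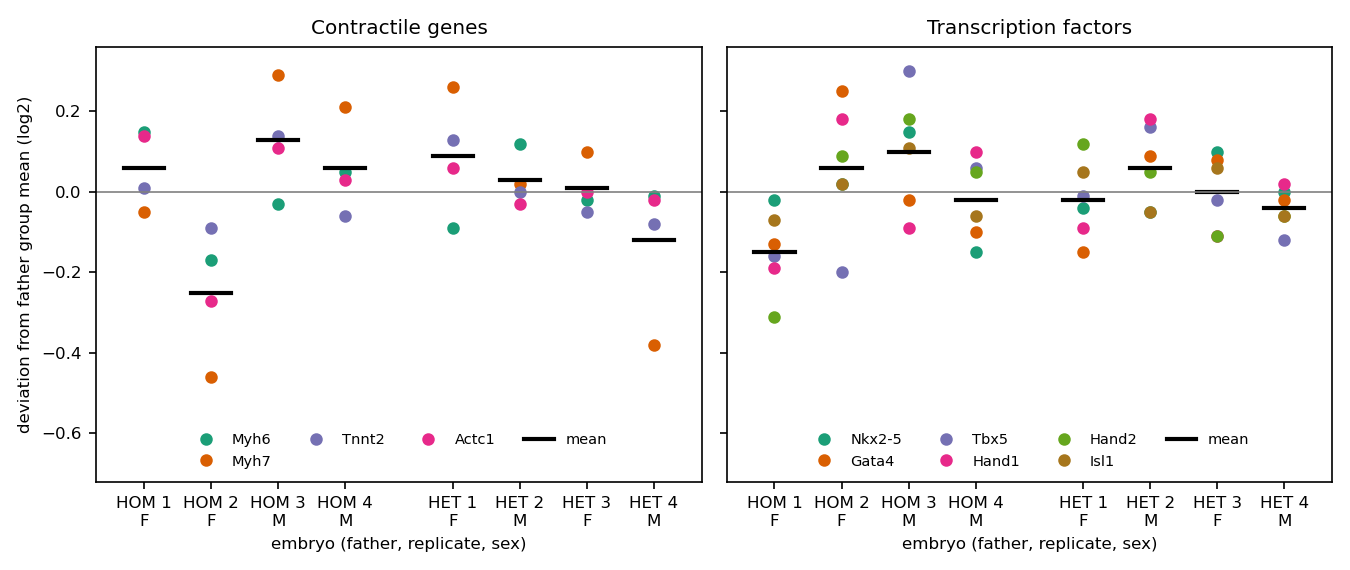
Deviation of each heart gene from its father group mean (log2) in each embryo, for contractile genes (left) and transcription factors (right), with the mean over the genes as a black bar and F or M for the sex. All 4 contractile genes lie below 0 in HOM father embryo 2 and, by less for each, in HET father embryo 4. In HOM father embryo 2, 5 of 6 transcription factors lie above 0, of which Nkx2-5 and Isl1 are at 0.02.

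Other genes of the sarcomere were also low in HOM father embryo 2, for which 20 of 21 further contractile probes lay below the group mean, with a median of -0.22. All 8 probes for chamber, calcium handling and conduction genes lay below it, with a median of -0.36. Nppa, the atrial natriuretic peptide of working myocardium, had normalised log2 signals of 1.83, -0.80, 1.35 and 0.78 in HOM father embryos and 0.98, 0.43, 1.09 and 1.25 in HET father embryos. Nppb, the B type peptide, had -1.25, -2.99, -0.79 and -1.87 in HOM father embryos and -1.49, -1.98, -1.39 and -1.56 in HET father embryos. In both, HOM father embryo 2 was the lowest of the 8. Of 25 probes for other heart regulators and signals, 13 lay below the group mean in that embryo, with a median of -0.02.

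Other markers moved in that embryo as well. The median deviation was -0.29 over 5 somite probes, -0.27 over 6 neural probes, -0.15 over 4 skeletal and smooth muscle probes, all 4 of them below the group mean, and 0.17 over 6 tailbud probes. It was 0.10 over 3 proepicardial and splanchnic mesoderm probes, -0.06 over 9 yolk sac and gut endoderm probes and -0.08 over 9 endothelial and endocardial probes, and the last were lower still in HOM father embryo 1 (-0.14). On its array 54.4% of spots were well above background, the low end of the HOM father group (up to 60.8%) and within the range of the HET father group (51.9% to 58.5%). The part of these markers in the low contractile signal was not tested. Without this embryo 0 of 11 heart gene probes passed an adjusted p below 0.05, against 20.8% of all probes. The differences became 0.13 for Myh7, 0.12 for Actc1 and -0.12 for the brighter Myh6 probe.

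Across the 8 embryos, the mean contractile deviation was followed by other sarcomere genes. Over the 21 other contractile probes the Pearson r with it was above 0 for 20, with a median of 0.70, and was highest for Myl4, the atrial light chain (0.95), the muscle LIM protein gene Csrp3 (0.89) and the slow skeletal troponin I gene Tnni1 (0.88). The 25 probes of other regulators and signals had a median r of 0.02, and all 19009 tested probes with a RefSeq symbol had -0.10. This rested on HOM father embryo 2. Without it the median r of the contractile probes was 0.04, with 13 of 21 above 0, beside 0.01 over all. The points share their libraries, and the relation is a description with no test.

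Named probes with the profile most like that of the contractile genes were those for Csf1 (r = 0.997), a macrophage growth factor, Prr36 (0.982), Plcb1 (0.964), a phospholipase C, Srpx (0.962) and Fbrsl1 (0.961), over 8 embryos and among 19009 candidates. For the mean profile of the 6 regulators they were Sfrp5 (0.976), a secreted Wnt antagonist, Bves (0.975), a membrane protein of heart and muscle, Vcam1 (0.969), an adhesion molecule, Rspo3 (0.969), a Wnt agonist, and Vstm5 (0.969). Without HOM father embryo 2 the r was 0.845 to 0.986 for the 5 contractile matches and 0.969 to 0.985 for the 5 regulator matches, over 7 embryos. By rank Fbrsl1 was less alike (Spearman rho 0.643). These are the highest of many candidates over few embryos and carry no test.

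Sex made no difference that passed the test. Between females and males 0 of 11 probes passed an adjusted p below 0.05 with limma, against 0.121% of all probes, 0 of 11 passed an adjusted p below 0.01 with a 2-fold change, against 0.0606% of all probes, and 0 of 11 had an unadjusted p below 0.05, against 5.22% of all probes. The father difference itself was compared between the sexes by an interaction term, which 0 of 11 probes passed at an adjusted p below 0.05, against 0.0639% of all probes. At an unadjusted p below 0.05 there was 1 of 11, Myh7, against 4.52% of all probes. For Myh7 the father difference was -0.45 in females and 0.41 in males, with an interaction of -0.87 (SE 0.27, unadjusted p = 0.0181 and adjusted p = 0.952 with limma). In females both HOM father values lay below both HET father values, and in males both lay above. Both HOM father males carried the leading number 188 in the sample name, and the labels do not say what it means. The interaction fit treated these males as independent. Such opposite differences without overlap were seen for 2 of 11 probes, Myh7 and Isl1, and in 2.84% of all probes. For Isl1 the nearest values of the father groups were close, both -0.94 after rounding in females and -1.02 and -1.04 in males.

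The wider group of heart genes was examined in 50 further genes with 65 probes, of which 54 probes for 43 genes were bright enough to test. With limma 4 of 54 passed an adjusted p below 0.05 (7.41%, against 21% of all probes), 2 higher and 2 lower in the HOM father group. The 2-fold rule was passed by 0 of 54, against 1.27% of all probes. At an unadjusted p below 0.05 there were 12 of 54, against 34.8% of all probes. The difference was below 0 for 38 probes and above 0 for 16, and its median was -0.11. Of 25 probes for regulators and signals 1 rose and 1 fell, of 21 contractile probes 1 fell, and of 8 probes for chamber, calcium and conduction genes 1 rose. Under median scaling 20 of 54 passed, 19 of them lower, where 42.7% of all probes passed and 34.8% were lower.

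Smyd1, a muscle methyltransferase needed for growth of the ventricles, had the largest rise. Its brighter probe gave 1.12, 1.25, 1.05 and 1.18 in HOM father embryos and 0.33, 0.21, 0.29 and 0.17 in HET father embryos. The groups were well apart, with a difference of 0.90 (95% interval 0.75 to 1.04, limma adjusted p = 0.000172), or 1.86-fold. The call held in 20 of 20 alternative settings. The second Smyd1 probe, designed to the same transcript, was well above background in 3 HOM father and 4 HET father embryos and gave a difference of -0.27 (SE 0.50, 95% interval -1.42 to 0.89, limma adjusted p = 0.745), so that the rise was seen with 1 of 2 probes. Smyd1 is also made in skeletal muscle. The skeletal muscle regulators Myf5, Myod1 and Myog were not well above background in any of the 8 embryos. The 4 tested probes for skeletal and smooth muscle were those of Acta1, Acta2, Cnn1 and Tagln. Of these 0 passed, against 21% of all probes, with a median difference of 0. Their summed level was 54.1 to 60.5 times the 75th percentile in HOM father embryos and 58 to 64.4 times in HET father embryos. Acta2 and Tagln were the brightest, with HOM father means of 5.01 and 4.28, against 1.3 for Acta1. The part of skeletal muscle in the Smyd1 rise was not tested.

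The other calls were smaller. Atp2a2, the calcium pump of the sarcoplasmic reticulum, gave 2.13, 1.95, 2.12 and 2.01 in HOM father embryos and 1.74, 1.82, 1.84 and 1.88 in HET father embryos, a rise of 0.23 (limma adjusted p = 0.0281), while its second probe gave -0.07 (limma adjusted p = 0.686). Srf, which encodes the serum response factor, gave 2.09, 2.21, 2.25 and 2.22 in HOM father embryos and 2.42, 2.40, 2.56 and 2.49 in HET father embryos. The difference was -0.27 (limma adjusted p = 0.0159), but its second probe gave 0.21 (limma adjusted p = 0.0743). Myl7, the atrial regulatory light chain, gave 3.14, 3.03, 3.29 and 3.09 in HOM father embryos and 3.41, 3.36, 3.47 and 3.30 in HET father embryos, a difference of -0.25 (limma adjusted p = 0.0408). In each of these probes the groups did not overlap, which adds little to calls made on the same values. Over the other heart genes the groups did not overlap for 7 of 54 probes, against 27.1% of all probes.

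The calls for Atp2a2 and Myl7 depended on the setting more than that for Srf. Atp2a2 passed in 9 of 20 alternative settings and Myl7 in 6, against 18 for Srf. Atp2a2 no longer passed without any 1 of HOM father embryos 1, 3 and 4 or HET father embryos 1, 2 and 3, with a lowest limma adjusted p of 0.0538 among these. Myl7 passed without HOM father embryo 3 and in no other fit that left out 1 embryo. The differences themselves moved little in these fits, from 0.21 to 0.27 for Atp2a2 and from -0.30 to -0.21 for Myl7.

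**Figure D4:**
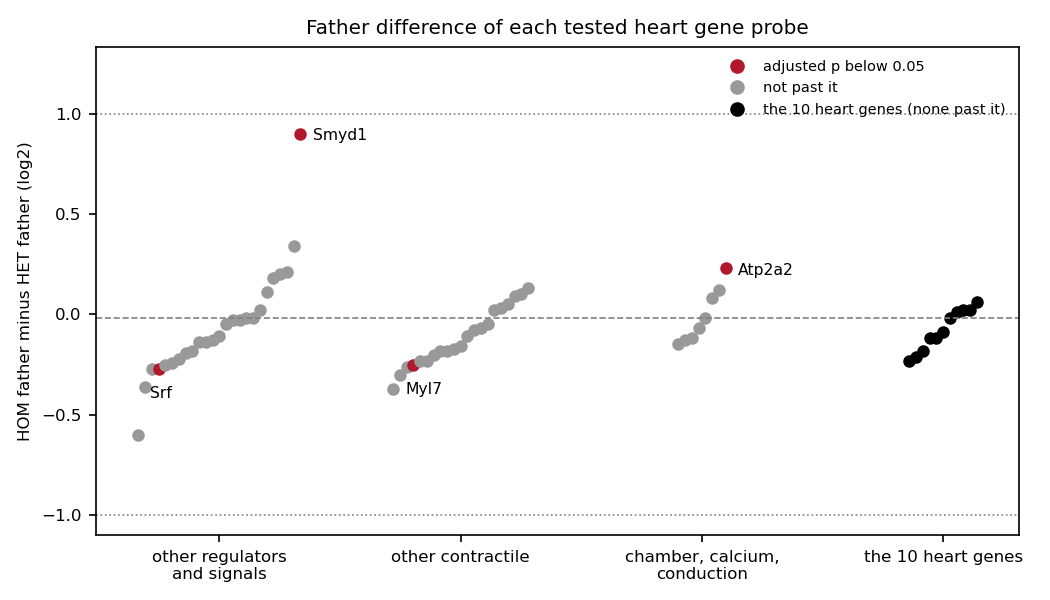
Difference between father groups (log2, 4 embryos a group) of each tested probe for other heart genes, in 3 classes, and of the 11 probes of the 10 heart genes (black), sorted by value within a class. Red points passed an adjusted p below 0.05, the dashed line is the median of all tested probes (-0.02), and Smyd1 at 0.90 stands apart just below the dotted 2-fold line.

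Markers of other tissues in the embryo gave the setting for these values. Of the probes for yolk sac and gut endoderm 1 of 9 passed an adjusted p below 0.05 with limma (Apoa1, -0.41), against 21% of all probes. For endothelium and endocardium, the inner lining of the heart included, 0 of 9 passed, with a summed level of 21.6 to 25.4 times the 75th percentile in HOM father embryos and 21 to 23.3 times in HET father embryos. Among neural, somite and tailbud probes 1 of 6 (a Sox1 probe, 0.42), 1 of 5 (Uncx, 0.63) and 1 of 6 (a Tbx6 probe, -0.32) passed, and of those for proepicardium and splanchnic mesoderm 0 of 3. Their part in the heart gene values was not tested.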

How the data were processed

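Total RNA of single E8.5 embryos (0.2 µg each) was labelled with Cy3 and hybridised to 1-colour arrays. The deposited scanner files hold spot intensity on a linear scale, made by the authors with Agilent Feature Extraction 11.0.1.1, with background subtracted and no normalisation between arrays. The deposited flags (0 or 1) for spots well above background, saturated or outlying are other values and were used as filters. The authors' series table held the same intensity values, rounded (largest relative difference 0.497%). A count of reads does not exist for arrays, and precision is limited by 4 embryos a group.

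Control spots and outlier spots were left out, spots of one probe were averaged, and the 75th percentile of log2 intensity was subtracted from each array. Probes entered the tests when 4 or more arrays had them both above the 20th percentile of the array and flagged as well above background. Probes were named by RefSeq accession, which gave 1 symbol for 27235 probes (48.9%). Probes are from the array design and their genome positions were not used here. The sequences shown are RefSeq windows on GRCm38.p6, and the motifs were searched by letters.

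Father groups were compared with limma 3.58.1 in R 4.3.3 over the 8 arrays, with Benjamini-Hochberg adjustment over all tested probes. Sex and the father by sex interaction were fitted in models over the same arrays. The father comparison was also run on simulated data with known changes. Each value was drawn independently, without a slide or shared sire effect, so the simulation does not bear on these limits. The genes named are the 10 members with every probe, other heart genes past an adjusted p of 0.05 (up to 5 each way), the 5 probes most like each mean profile, and genes cited for context after their values were seen. The members and lists were chosen with earlier results of these data known.

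Alternatives were quantile normalisation, median scaling, normexp background correction (offset 50, on the median spot intensity, since the mean was not among the columns), the authors' table, other filters, sex as a covariate, a trended robust variance, the replicate number, the slide position or the leading number of the sample name as a block, and leaving out each embryo. The profile correlations without HOM father embryo 2 were added after seeing the data. One marker list is not reported here.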

Additional observations from a re-analysis of the deposited data

Results flagged for a closer look

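For Myh7 the father difference had opposite signs in the sexes, -0.45 in females and 0.41 in males, with no overlap between father groups in either sex. The interaction was -0.87 on the log2 scale and did not pass after adjustment (limma adjusted p = 0.952). For Isl1 it was -0.06 in females and 0.11 in males, again with no overlap in either sex. The interaction was -0.17 (limma unadjusted p = 0.214). The nearest Isl1 values of the father groups were both -0.94 after rounding in females and -1.02 and -1.04 in males, beside a within-group SD of 0.08. Such opposite, non-overlapping differences were seen in 2.84% of all tested probes. No embryo stood far from the other 3 of its father group by Dixon's ratio in the 30 sets of 4 values examined, where chance gives 1.5. These sets did not take in every other heart or marker probe. The contractile gene Xirp1, not among them, was -2.71 in HOM father embryo 2, against -2.1, -2.11 and -2.1 in embryos 1, 3 and 4.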

How the results depend on the processing

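Of the 11 heart gene probes, 0 passed an adjusted p below 0.05 in any setting but median scaling, where 5 did. Of the 54 other heart probes 4 passed in the main setting (21% of all probes), 20 under median scaling (42.7%) and 7 with normexp (23.3%). With no filter 1 of 65 passed, against 5.59% of all probes. With slide position as a block (6 arrays) 1 passed, against 4.89% of all probes. The leading number of the sample name as a random block (consensus correlation 0.302) gave 2, against 16.4% of all probes. Fits that left out 1 embryo gave 0 to 0 heart gene probes and 2 to 4 other heart probes. The latter count was 2 without HOM father embryo 1 or 4 or HET father embryo 1, 2 or 3. In these fits 14.1% to 20.8% of all probes passed.

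Signs near 0 were not stable. Under quantile normalisation Isl1 was -0.02, the dimmer Myh6 probe -0.08 and Myh7 0.05. Under median scaling Nkx2-5 was -0.18, Isl1 -0.17, the dimmer Myh6 probe -0.13 and Actc1 -0.17. With normexp Actc1 was -0.08, and with the slide position block Myh7 was 0.08 and Actc1 0. Leaving out 1 embryo moved Nkx2-5 from -0.04 to 0.06, Isl1 from -0.01 to 0.05, the dimmer Myh6 probe from -0.14 to 0.27, Myh7 from -0.15 to 0.13 and Actc1 from -0.02 to 0.12. The median SD within groups was 0.11 to 0.16 and the Myh7 interaction -1.08 to -0.66. The cause was not tested.

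Replicate numbers were not used as pairs in the main fit. Same-numbered deviations correlated at 0.19, -0.09, -0.13 and 0.15 for replicates 1 to 4. For replicates 1 and 4 the best match was the embryo of the same number, and for replicates 2 and 3 it was not. With the replicate number as a block, 0 heart gene probes passed (lowest limma adjusted p = 0.242), and 2 other heart probes did. In that fit 11.7% of all probes passed.

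The widest 95% interval of the 11 probes, that of the dimmer Myh6 probe, ran from -0.49 to 0.62. The arrays lay on 1 slide per father group, sires are not named, and whole embryos do not resolve heart cells.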
